A study of Mus musculus with 9 samples.

Results

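The genes described here encode 9 transcription factors of the myeloid lineage: *Spi1*, *Runx1*, *Cebpa*, *Cebpb*, *Cebpd*, *Maf*, *Klf2*, *Klf4*, and *Klf6*. They were chosen by name from the factor families that specify and maintain monocytes and macrophages, and they are 9 of the 50559 genes listed for each library. All 9 passed the filter on low counts that 16618 genes passed. The cells were CD45+CD11b+ myeloid cells sorted from the quadriceps of *mdx* mice, which lack dystrophin and are a model of Duchenne muscular dystrophy. All mice were on the *mdx* background and 4.5 weeks old at collection, after 7 days of vehicle, spironolactone (a mineralocorticoid receptor antagonist), or prednisolone (a glucocorticoid). There was no wild-type group. Each group had 3 RNA sequencing libraries, and each library held cells pooled from 3 mice, so that the spread between libraries is a spread between pools.

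PU.1, the product of *Spi1*, is an ETS family factor that opens the enhancers of myeloid cells, where it binds together with C/EBP factors, and RUNX1 acts with both at genes such as *Csf1r*. The C/EBP factors bind as dimers: C/EBPα drives the step from progenitor to granulocyte and monocyte, whereas C/EBPβ and C/EBPδ are induced in mature cells by inflammatory signals. C/EBPβ is also required in macrophages for the repair of injured muscle. c-MAF holds macrophages in a differentiated, nondividing state. The Krüppel-like factors (KLF) include KLF2, which restrains inflammatory activation, KLF4, which promotes monocyte differentiation, and KLF6, which supports inflammatory gene expression.

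Each library held 31469815 to 32943512 counts on genes. All 7 markers of the sorted population (*Ptprc*, *Itgam*, *Csf1r*, *Adgre1*, *Fcgr1*, *Lyz2*, *Cd68*) were present in every library, and their summed level was 15743 to 18910 CPM (counts scaled to an equal library total with edgeR's trimmed mean of M values, TMM). Markers of other cells varied between libraries. The summed level of 10 neutrophil genes was 393, 523, and 4293 CPM in the vehicle libraries, 1012, 1035, and 3182 CPM with spironolactone, and 576, 577, and 429.9 CPM with prednisolone, so that vehicle replicate 3 and spironolactone replicate 3 stood apart. Of these 10 genes, 8 were lower with prednisolone than with vehicle (median log2 difference -1.62, 0 called), among them *Ngp*, with a median over libraries of 1.94 CPM against 72.1 CPM. The summed level of 6 dendritic cell genes was 564 to 733 CPM with prednisolone, above the 376 to 398 CPM of vehicle. Of these 6 genes, 5 were higher with prednisolone than with vehicle (median log2 difference 0.55, 1 called). Most of the difference in the sum lay in *Itgax* (569 against 327 CPM), an integrin gene that macrophages also express. *Flt3* (22.8 against 15.9 CPM) and *Zbtb46* (9.73 against 6.54 CPM) were among the others that were higher. The 1 gene that was lower was *Clec9a*, a defining gene of dendritic cells, at 3.15 against 3.67 CPM. With spironolactone all 6 were higher than vehicle (median log2 difference 0.47, 0 called). In vehicle replicates 1 to 3, 5 classical monocyte genes summed to 957, 2077, and 1984 CPM, so that replicate 1 stood apart. Their sum was 1303 to 1568 CPM with spironolactone and 1692 to 2189 CPM with prednisolone. All 5 were lower with spironolactone than with vehicle (median log2 difference -0.14, 0 called). With prednisolone 2 were higher and 3 lower (median log2 difference -0.16, 0 called). All 6 genes of the F4/80hi macrophage list were higher with prednisolone than with vehicle (median log2 difference 0.53, 0 called). *Adgre1*, the gene of F4/80, (678 against 675 CPM) and *Folr2* (157.4 against 157.2 CPM) hardly differed. The largest log2 differences lay in the less abundant *Lyve1* (31.1 against 11.5 CPM), *Timd4* (13.8 against 6.51 CPM), and *Cd163* (26.2 against 14.4 CPM). The sum of the list was 1380 to 1480 CPM against 1209 to 1463 CPM. The sum of the skeletal muscle genes was 270.2 to 407 CPM with prednisolone and 320.3 to 541 CPM with spironolactone, above the 169.7 to 263 CPM of vehicle. With spironolactone, 11 endothelial genes summed to 179 to 294 CPM against 83.3 to 134 CPM in vehicle, and 5 erythroid genes to 186 to 305 CPM against 70.2 to 135 CPM, and 9 lymphocyte and NK cell genes to 12.5 to 19.6 CPM against 5.56 to 10.4 CPM. All 6 fibro-adipogenic genes were also higher with spironolactone than with vehicle (median log2 difference 0.51, 0 called), with sums of 806 to 1183 CPM against 615 to 873 CPM. With prednisolone 5 of 5 erythroid genes and 8 of 9 lymphocyte and NK cell genes were lower than in vehicle (0 called). No gene of these marker lists was at 0 in all libraries. In sorted bulk RNA, fewer cells of a type and less RNA per cell cannot be told apart.

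Prednisolone lowered 3 of the 9 genes, *Cebpa*, *Cebpb*, and *Klf6*, and the fitted difference of every one of the 9 was below 0, as was that of 52.2% of all genes. The direction of *Spi1*, *Klf2*, and *Klf4*, whose differences were near 0, turned when some single libraries were left out. Among all 16618 genes, 1.76% passed the same test (edgeR's quasi-likelihood test, adjusted *P* under 0.05), and 0.758% passed it with a lower level. The median log2 difference was -0.16 over the 9 genes and -0.01 over all genes. In 4 of the 9 genes (*Maf* in addition), the 3 prednisolone libraries lay below all 3 vehicle libraries, as in 9.27% of all genes. These 4 genes also had an unadjusted *P* under 0.05, as did 14.2% of all genes. The 9 genes were abundant, between the 75.0 and the 99.4 percentile of mean CPM, so that counting error weighed less on them than on most genes. Spironolactone changed none of the 9 genes at that threshold with edgeR, where 0.0181% of all genes passed.

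**Figure D1:**
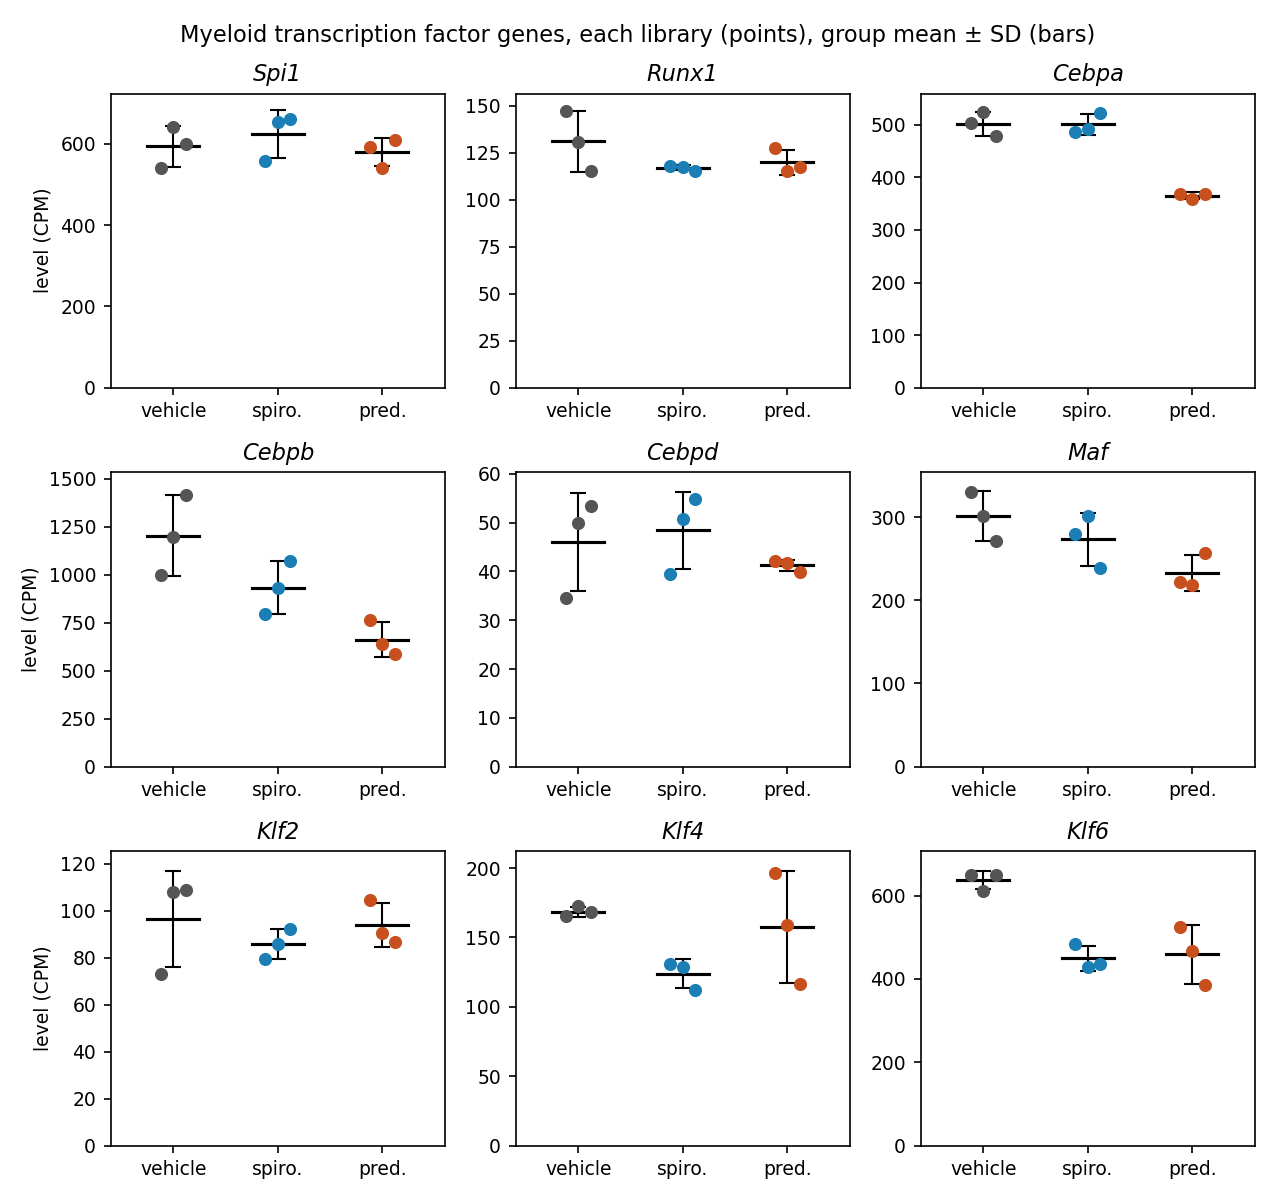
Level in CPM (vertical axis, from 0) of each of the 9 transcription factor genes in vehicle, spironolactone (spiro.), and prednisolone (pred.) libraries. Points are libraries in replicate order from left to right, the horizontal line is the group mean, and the bars are ± SD (n = 3). All prednisolone points of *Cebpa*, *Cebpb*, *Maf*, and *Klf6* lie below all vehicle points, and so do the spironolactone points of *Klf4* and *Klf6*.

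Levels of different genes were compared per length of exon, in TPM (counts per exon length, scaled to an equal total). In vehicle libraries *Cebpb* was the most abundant of the 9, at 3516 ± 465 TPM (SD, n = 3). *Spi1* at 867 ± 42.2 TPM and *Cebpa* at 841 ± 60.2 TPM followed, and their libraries overlapped. *Klf6* stood below both at 630.2 ± 45.4 TPM. *Klf4* at 236 ± 8.71 TPM, *Klf2* at 199 ± 33.4 TPM, and *Maf* at 144 ± 21.2 TPM formed the next level, in which the libraries of *Klf2* and *Maf* overlapped. *Cebpd* at 53.8 ± 9.40 TPM and *Runx1* at 45.9 ± 7.89 TPM were the lowest and overlapped. With prednisolone the libraries of *Spi1* (856 to 949 TPM) and *Cebpa* (641 to 658 TPM) did not overlap. Some of this order rests on the length used. With the longest transcript in place of all exons, *Spi1* (905 to 994 TPM) and *Cebpa* (570.2 to 653 TPM) did not overlap in vehicle either, *Klf2* and *Klf4* did, and *Runx1* stood above *Cebpd*.

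**Figure D2:**
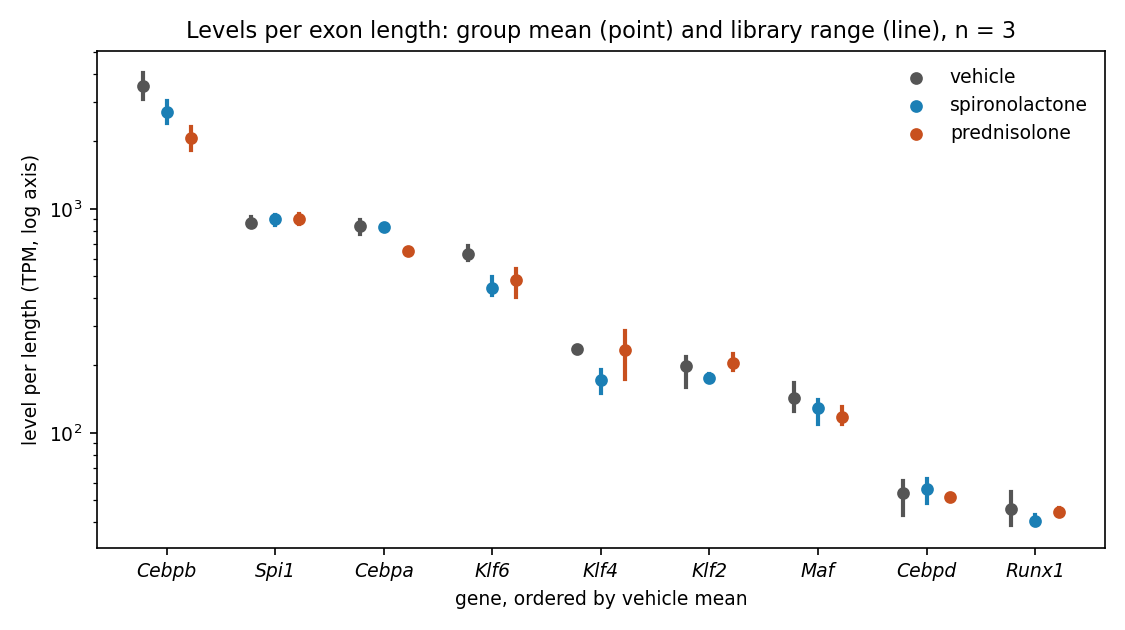
Level per exon length (TPM, log axis) of the 9 genes, ordered by their vehicle mean. Points are group means and lines run from the lowest to the highest of the 3 libraries. *Cebpb* stands highest in all groups (3516 TPM in vehicle, 2060 TPM with prednisolone), and the prednisolone point of *Cebpa* drops away from that of *Spi1*.

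The promoters of the 3 genes that fell with prednisolone are shown because these genes carry the result. Each window runs from 250 bases before to 30 bases from the annotated start (RefSeq, table build GRCm38.p6), was found unchanged in GRCm39, and is given with GRCm39 coordinates on the plus strand. Capitals mark a TATAAA word in the first pair and a TTGCNNCAA word in the third. TTGCNNCAA was searched as a looser C/EBP-like word. It is longer than the C/EBP palindrome TTGCGCAA, and a match to it is not a match to the palindrome. *Cebpa* lies at chr7:34818718-34821353 and is a gene of 1 exon, and its window is chr7:34818468-34818747. *Cebpb*, also of 1 exon, lies at chr2:167530835-167532338, with the window chr2:167530585-167530864. *Klf6* lies at chr13:5911481-5920393, with the window chr13:5911238-5911517.
Cebpa: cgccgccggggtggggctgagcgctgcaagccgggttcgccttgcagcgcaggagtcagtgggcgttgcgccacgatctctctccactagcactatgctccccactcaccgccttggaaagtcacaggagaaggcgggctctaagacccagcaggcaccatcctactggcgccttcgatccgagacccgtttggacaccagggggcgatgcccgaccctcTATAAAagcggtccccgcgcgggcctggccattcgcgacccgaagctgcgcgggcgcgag
Cebpb: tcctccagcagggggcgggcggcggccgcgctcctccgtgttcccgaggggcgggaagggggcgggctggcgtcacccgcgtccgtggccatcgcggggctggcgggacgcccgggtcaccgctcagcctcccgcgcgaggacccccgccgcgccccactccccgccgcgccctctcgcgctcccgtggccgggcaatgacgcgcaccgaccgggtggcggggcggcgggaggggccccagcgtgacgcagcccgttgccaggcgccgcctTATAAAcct
Klf6: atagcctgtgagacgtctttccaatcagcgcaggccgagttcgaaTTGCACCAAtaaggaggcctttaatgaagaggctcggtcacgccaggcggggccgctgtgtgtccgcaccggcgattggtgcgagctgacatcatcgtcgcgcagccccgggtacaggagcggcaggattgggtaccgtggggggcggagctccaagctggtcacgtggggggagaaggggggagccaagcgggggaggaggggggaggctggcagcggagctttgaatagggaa

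The windows were 67.1% (*Cebpa*), 79.6% (*Cebpb*), and 63.9% (*Klf6*) G or C. The TATAAA word began 30 bases before the start in *Cebpa*, and 22 bases after it in *Cebpb*. TATAAA was present in 13.1% of the 32851 windows of the same length. *Cebpb* held 5 matches to CCGCCC, the core of the GC box bound by SP and KLF factors, and *Klf6* held 1, as did 34.7% of windows at least once. The TTGCNNCAA match in *Klf6* began 205 bases before the start, and 1.95% of windows held this word. None of the 3 windows held TGANTCA (AP-1, 7.46% of windows), TGACGTCA (the cAMP response element, 1.74%), TTGCGCAA (C/EBP palindrome, 0.18%), GAGGAAGT (PU.1, 2.82%), TGTGGT (RUNX, 15.6%), AGAACA (a steroid receptor word, 17.8%), or the MEF2 word (0.107%). Both strands were searched, and a match describes letters in the window and is not a measured site. *Klf2*, *Klf4*, and *Runx1* also had windows in the table.

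*Cebpa* was at 503, 524, and 479 CPM in vehicle replicates 1 to 3, 487, 492, and 523 CPM with spironolactone, and 369, 358, and 369 CPM with prednisolone. The prednisolone libraries were close together and below all other libraries, whereas vehicle and spironolactone overlapped. With prednisolone *Cebpa* fell by 27.2% against vehicle (log2 fold change -0.46 ± 0.08, SE; edgeR adjusted *P* = 0.0139). With spironolactone the difference from vehicle was -0.004 ± 0.083 on the log2 scale, with a 95% interval from -0.18 to 0.18 (edgeR adjusted *P* = 0.994). The fall with prednisolone was called under all 10 other settings of the analysis. Leaving out vehicle replicate 2 or any 1 of the prednisolone libraries ended the call, with adjusted *P* of up to 0.106 and log2 fold changes between -0.49 and -0.43.

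*Cebpb* was at 999, 1194, and 1417 CPM in the vehicle libraries, 793, 930.4, and 1069 CPM with spironolactone, and 762, 637, and 587 CPM with prednisolone. All prednisolone libraries were below all vehicle and spironolactone libraries, and spironolactone overlapped with vehicle. The vehicle libraries differed by more among themselves (SD 209 CPM) than those of prednisolone (SD 89.9 CPM). With prednisolone *Cebpb* fell by 45.0% (log2 fold change -0.86 ± 0.15, 95% interval -1.18 to -0.55; edgeR adjusted *P* = 0.0108), the largest difference among the 9 genes in that comparison. The spironolactone mean was 931 ± 138 CPM against 1203 ± 209 CPM in vehicle (log2 difference -0.37 ± 0.15; edgeR adjusted *P* = 0.449). The prednisolone call was kept under all 10 other settings and was lost without prednisolone replicate 2 or 3 (adjusted *P* of up to 0.0857). Of the exon bases of *Cebpb*, 20.7% overlap *Peds1* on the opposite strand. Whether the counting used strand is not given in the sources used here. Reads in this overlap could thus have been counted for either gene or left out as ambiguous, a class that held 2.16% to 2.35% of a library.

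*Cebpd*, the least abundant of the C/EBP genes among the 9, was at 34.5, 49.9, and 53.4 CPM in vehicle, 39.6, 50.7, and 54.9 CPM with spironolactone, and 42.0, 41.8, and 39.9 CPM with prednisolone. The 3 groups overlapped. Part of its exon overlaps *Spidr* on the opposite strand. Its log2 difference was -0.16 ± 0.15 with prednisolone (edgeR adjusted *P* = 0.716) and 0.08 ± 0.15 with spironolactone (edgeR adjusted *P* = 0.934). The level of *Cebpb* relative to *Cebpa* within a library, which does not depend on the library total, was 1.25 ± 0.29 in vehicle, 0.89 ± 0.17 with spironolactone, and 0.85 ± 0.19 with prednisolone (log2 ratio of counts, SD, n = 3). The differences from vehicle were -0.36 with spironolactone and -0.40 with prednisolone (exact permutation test, two-sided, *P* = 0.2 for each drug against vehicle, 0.3 after adjustment over the 3 comparisons; 3 against 3 libraries cannot give less than 0.1, so that this test could not have passed the threshold).

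*Spi1* was at 541, 641, and 600.2 CPM in vehicle, 557, 654, and 662 CPM with spironolactone, and 591, 542, and 609 CPM with prednisolone. The groups overlapped, and the means lay between 581 and 624 CPM. The log2 difference was -0.03 ± 0.10 with prednisolone (edgeR adjusted *P* = 0.924) and 0.07 ± 0.10 with spironolactone (edgeR adjusted *P* = 0.893). *Runx1* was at 147, 131, and 115 CPM in vehicle, 118, 117, and 116 CPM with spironolactone, and 127, 115, and 117 CPM with prednisolone. Its vehicle libraries spanned most of the range, and its log2 differences of -0.13 ± 0.10 with prednisolone (edgeR adjusted *P* = 0.603) and -0.16 ± 0.10 with spironolactone (edgeR adjusted *P* = 0.648) did not pass the test.

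*Maf* was at 331, 302, and 271 CPM in vehicle, 279.5, 302, and 239 CPM with spironolactone, and 223, 218, and 257 CPM with prednisolone. All prednisolone libraries were below all vehicle libraries, with a log2 difference of -0.37 ± 0.11 that did not pass the test (edgeR adjusted *P* = 0.121); DESeq2 and the fit with no low-count filter called it. With spironolactone the difference was -0.14 ± 0.11 (edgeR adjusted *P* = 0.759).

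*Klf6* was the only KLF gene of the 3 that passed the test in any comparison. It was at 649, 612, and 649.5 CPM in vehicle, 484, 429, and 436 CPM with spironolactone, and 525, 467, and 385 CPM with prednisolone. All libraries of both drugs were below all vehicle libraries. With prednisolone it fell by 27.9% (log2 fold change -0.47 ± 0.11; edgeR adjusted *P* = 0.0464), a call close to the threshold that was kept under 7 of 10 other settings (lost with library totals as the scaling, without the robust option, and in a fit of only the groups compared) and in 3 of the 9 fits that left out 1 library. Leaving out vehicle replicate 2 or 3, spironolactone replicate 2 or 3, or prednisolone replicate 2 or 3 ended it (adjusted *P* of up to 0.178). With spironolactone the log2 difference was as large, -0.50 ± 0.11, and did not pass the adjusted threshold (edgeR adjusted *P* = 0.129), though DESeq2 and the fit with no low-count filter called it.

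*Klf4* was at 165, 173, and 168 CPM in vehicle, 131, 129, and 112 CPM with spironolactone, and 197, 159, and 117 CPM with prednisolone. The spironolactone libraries were all below vehicle, whereas the prednisolone libraries lay on both sides of it. The log2 difference was -0.44 ± 0.15 with spironolactone (edgeR adjusted *P* = 0.336) and -0.10 ± 0.15 with prednisolone (edgeR adjusted *P* = 0.831). The fit with no low-count filter called the spironolactone difference (edgeR adjusted *P* = 0.00613), the only one of 10 other settings to do so. *Klf2* was at 73.0, 108, and 109 CPM in vehicle, 79.4, 85.9, and 92.5 CPM with spironolactone, and 105, 90.7, and 86.5 CPM with prednisolone, and the groups overlapped. Its log2 difference was -0.04 ± 0.14 with prednisolone (edgeR adjusted *P* = 0.931) and -0.17 ± 0.14 with spironolactone (edgeR adjusted *P* = 0.767).

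Across the 9 genes, then, edgeR called 0 with spironolactone, and 3 (*Cebpb*, *Klf4*, *Klf6*) had an unadjusted *P* under 0.05, as did 9.29% of all genes. DESeq2 called 1 of the 9 (*Klf6*) and 263 of all genes, edgeR with no low-count filter called 2 (*Klf4*, *Klf6*) and 528 of all genes, and limma-voom called 0 of either, where the main fit called 3 of all genes. The spironolactone libraries lay below all vehicle libraries in 2 of the 9 genes (*Klf4*, *Klf6*), as in 6.5% of all genes. Both comparisons use the same vehicle libraries, so that a high or low vehicle library moves both differences of a gene in the same direction.

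Spironolactone and prednisolone were also compared directly, to find which of the 9 genes differed between the drugs. *Cebpa* was higher with spironolactone than with prednisolone (log2 fold change 0.46 ± 0.08, 95% interval 0.28 to 0.63; edgeR adjusted *P* = 0.00884), and it was the only one of the 9 called, where 5.17% of all genes were called and 2.38% were called higher. *Cebpb* was higher in all 3 spironolactone libraries than in any prednisolone library (0.49 ± 0.15 on the log2 scale, 95% interval 0.18 to 0.81), as 15.1% of all genes were, and did not pass the test (edgeR adjusted *P* = 0.0680), though 3 of 10 other settings, DESeq2 among them, called it. In *Klf6* the drugs differed by -0.03 ± 0.11 (95% interval -0.27 to 0.21; edgeR adjusted *P* = 0.913). *Klf4* was at -0.35 ± 0.15 (edgeR adjusted *P* = 0.186), the lowest difference of the 9. It was called with no low-count filter (edgeR adjusted *P* = 0.0209) and without prednisolone replicate 3 (edgeR adjusted *P* = 0.0338). The remaining differences were 0.10 for *Spi1*, 0.23 for *Cebpd* and *Maf*, -0.13 for *Klf2*, and -0.04 for *Runx1*, with edgeR adjusted *P* between 0.237 and 0.876. Leaving out prednisolone replicate 2 ended the call of *Cebpa* (adjusted *P* = 0.0554).

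**Figure D3:**
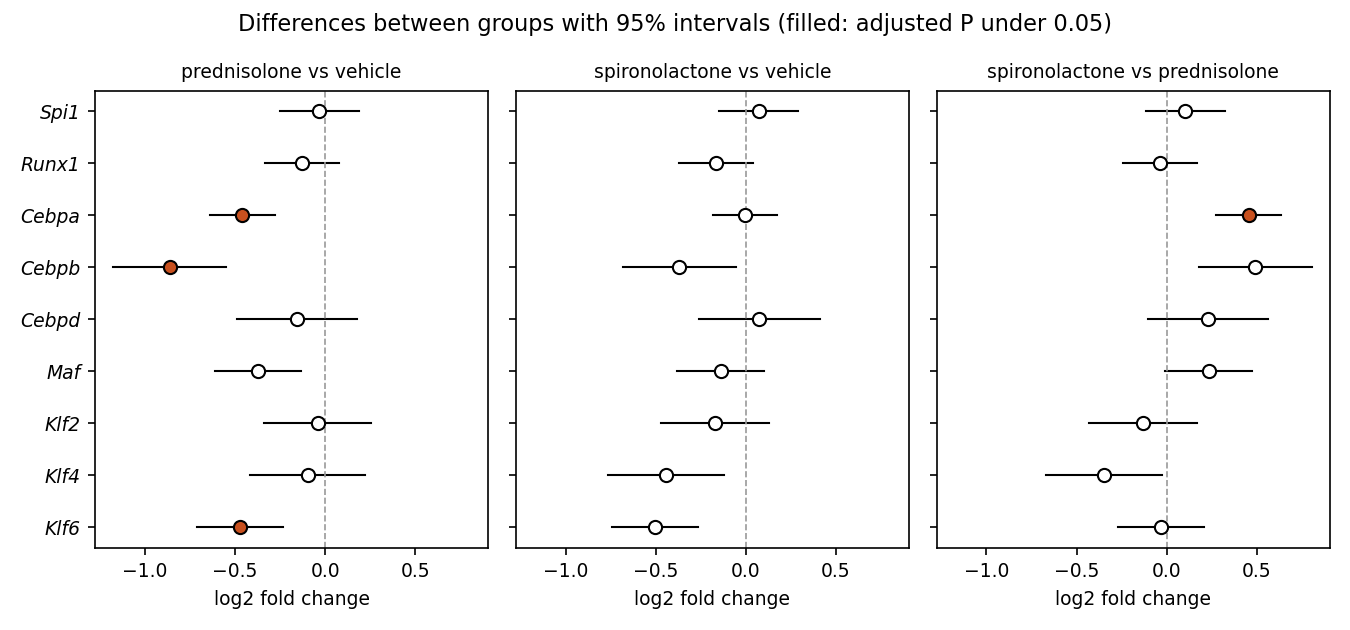
Log2 fold change (horizontal axis) of the 9 genes in the 3 comparisons, named above each panel as first group against second. Points are edgeR estimates, lines are 95% intervals, and filled points have an adjusted *P* under 0.05. The filled points are *Cebpa*, *Cebpb*, and *Klf6* below 0 with prednisolone, and *Cebpa* at 0.46 between the drugs.

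Since vehicle replicate 3 and spironolactone replicate 3 had the highest neutrophil marker sums, the differences were refitted without both, an alternative chosen after seeing the data. With prednisolone, *Cebpa* was then at -0.49 (edgeR adjusted *P* = 0.0487) and *Cebpb* at -0.72 (edgeR adjusted *P* = 0.0403) on the log2 scale, and both were still called. *Klf6* was at -0.46 and no longer passed (edgeR adjusted *P* = 0.162), and neither did *Cebpa* between the drugs, at 0.41 (edgeR adjusted *P* = 0.0600). In the main analysis, the markers called between the drugs were 5 of 11 endothelial, 4 of 5 erythroid, and 4 of 9 lymphocyte and NK cell genes. So were 2 of 6 F4/80hi macrophage, 1 of 6 dendritic cell, and 1 of 7 sorted population genes, beside 5.17% of all genes. Skeletal muscle sums lay above all vehicle libraries with both drugs, and dendritic cell sums with prednisolone. Endothelial, erythroid, and lymphocyte and NK cell sums lay above all vehicle libraries with spironolactone. Sums of neutrophil, classical monocyte, F4/80hi macrophage, and fibro-adipogenic genes overlapped with vehicle for both drugs. Most genes of each of these lists still lay on the same side of vehicle with a drug. The part of these markers in the differences of the 9 genes was not tested.

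Of 57 other transcription factors of myeloid cells, 56 were tested (*Gata6* was not), and prednisolone lowered 4: *Id3* (log2 fold change -0.97), *Id2* (-0.53), *Irf1* (-0.49), and *Lmo2* (-0.36), with edgeR adjusted *P* between 0.0122 and 0.0494, where 0.758% of all genes were lowered. The ID proteins block basic helix-loop-helix factors, and IRF1 mediates responses to interferon. *Lmo2*, a blood cell adaptor protein gene, was close to the threshold and was called under 3 of 10 other settings. The other calls were kept under all 10 and ended without prednisolone replicate 2 or 3, and those of *Irf1* and *Id2* also without vehicle replicate 2 (adjusted *P* of up to 0.152). The median over the list was -0.16, against -0.01 over all genes, and 17 of the 56 had an unadjusted *P* under 0.05, beside 14.2% of all genes. Spironolactone changed 0 of the 56 with edgeR, and 17 had an unadjusted *P* under 0.05, beside 9.29% of all genes. Between the drugs 7 of the 56 were higher with spironolactone and 0 lower, beside 2.38% and 2.79% of all genes, among them *Irf1* (0.48), *Irf8* (0.45), *Lmo2* (0.41), and *Id3* (0.83), with edgeR adjusted *P* between 0.00781 and 0.0165. Leaving out prednisolone replicate 2 ended each of these 4 calls (adjusted *P* from 0.0501), and leaving out spironolactone replicate 3 those of *Irf8*, *Lmo2*, and *Id3*. Without vehicle and spironolactone replicates 3, *Irf1* was the only gene of the list called, with prednisolone (-0.47) and between the drugs (0.53). *Irf8*, which directs monocyte and dendritic cell fate, had a mean of 214 CPM with prednisolone against 266 CPM in vehicle (log2 difference -0.32 ± 0.09; edgeR adjusted *P* = 0.10).

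No close relative of the 9 genes named here was called against vehicle. *Klf3*, a KLF repressor, was at -0.10 ± 0.10 with prednisolone and -0.13 ± 0.10 with spironolactone on the log2 scale, and *Runx3* at 0.01 ± 0.12 and -0.21 ± 0.12, none of which passed the test. *Cebpe*, the C/EBP gene of maturing neutrophils, had means of 6.62 CPM in vehicle, 6.46 CPM with spironolactone, and 2.98 CPM with prednisolone, and a log2 difference of -1.15 ± 0.51 with prednisolone (edgeR adjusted *P* = 0.351). Without the 2 libraries of highest neutrophil marker sums this difference was -0.49.

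The 28 genes listed as targets of PU.1, C/EBP factors, and RUNX1 in myeloid cells had a median log2 difference of -0.003 with prednisolone and -0.06 with spironolactone. Neither drug had a called gene in this list with edgeR, though 10 of the 28 with prednisolone and 4 with spironolactone had an unadjusted *P* under 0.05, beside 14.2% and 9.29% of all genes. *Csf1r*, the receptor of macrophage colony-stimulating factor and a target of all 3 factor families, had means of 1597 CPM in vehicle, 1591 CPM with spironolactone, and 1632 CPM with prednisolone. Between the drugs 4 of the 28 were called, where 5.17% of all genes were, and all were lower with spironolactone: *Itgam* (-0.43) and *Itgb2* (-0.41), which form the CD11b/CD18 integrin used in the sort, *Csf2rb* (-0.38), a cytokine receptor chain, and *Tlr4* (-0.34), the lipopolysaccharide receptor (edgeR adjusted *P* between 0.0311 and 0.0486). These 4 calls were near the threshold, and each ended without any 1 of the prednisolone libraries, and without spironolactone replicate 1 or 3 (adjusted *P* of up to 0.147). Without vehicle and spironolactone replicates 3 none of the 4 was called, and *Mpo*, the myeloperoxidase gene, was called higher with spironolactone (named after its value was seen).

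Of 14 macrophage genes linked to c-MAF, neither drug had a called gene against vehicle, and 7 with prednisolone and 4 with spironolactone had an unadjusted *P* under 0.05, beside 14.2% and 9.29% of all genes. Between the drugs 6 were called, 3 in each direction, where 5.17% of all genes were called. *Gas6*, a ligand that bridges dying cells to phagocytes, was higher with spironolactone (0.83; edgeR adjusted *P* = 0.0103), and so was the complement gene *C1qb* (0.62; edgeR adjusted *P* = 0.0154). *F13a1* (-0.88; edgeR adjusted *P* = 0.00358) and *Lyve1* (-1.60; edgeR adjusted *P* = 0.0338), both genes of resident macrophages, were lower with spironolactone than with prednisolone. The list thus moved in both directions, and its median was 0.15. The call of *F13a1* was kept whichever library was left out, whereas those of *Gas6*, *C1qb*, and *Lyve1* ended without prednisolone replicate 2 (adjusted *P* of up to 0.0946 over the libraries left out). Without vehicle and spironolactone replicates 3, 2 genes of the list were called with prednisolone, *Gas6* lower and *Timd4*, a phosphatidylserine receptor gene, higher, and 2 were called between the drugs, *F13a1* and *Gas6*. These genes are named for this refit after their values were seen.

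The 20 immediate early genes, which cells transcribe within minutes of a stimulus, are given because *Klf2*, *Klf4*, *Klf6*, *Cebpb*, and *Cebpd* can be induced in the same way. Prednisolone lowered 7 of the 20, among them *Ier5* (log2 fold change -0.91), *Atf3* (-1.07), *Jun* (-1.06), and *Dusp2* (-0.89), with edgeR adjusted *P* between 0.00116 and 0.0123, where 0.758% of all genes were lowered. Of these 4 calls, that of *Dusp2* ended without prednisolone replicate 2 (adjusted *P* = 0.0609), and the others were kept whichever library was left out. Without vehicle and spironolactone replicates 3, 3 of the 20 were called (*Ier5*, *Atf3*, *Jun*). With prednisolone 13 of the 20 had an unadjusted *P* under 0.05 and 18 were below 0, beside 14.2% and 52.2% of all genes. Spironolactone changed 0 of the 20 with edgeR, with 10 at an unadjusted *P* under 0.05 and 19 of 20 below 0, beside 9.29% and 50% of all genes. The summed level of the 20 genes was 14713 to 15315 CPM in the vehicle libraries, 11296 to 11957 CPM with spironolactone, and 11895, 9992, and 7803 CPM in prednisolone replicates 1, 2, and 3. The libraries of both drugs were below all vehicle libraries. Among the prednisolone libraries, replicate 1 was the highest and replicate 3 the lowest in this sum, and also in *Cebpb*, *Cebpd*, *Klf2*, *Klf4*, and *Klf6*. The other groups did not share this order. With spironolactone the sum was lowest in replicate 1, as were *Cebpb*, *Cebpd*, and *Klf2*, whereas *Klf4* (131 CPM) and *Klf6* (484 CPM) were highest there. In vehicle the sum was lowest in replicate 2, as was *Klf6*, whereas *Klf4* (173 CPM) was highest there. *Cebpb*, *Cebpd*, and *Klf2* were lowest in vehicle replicate 1. Immediate early genes also respond to tissue dissociation and sorting, and the part of handling in these differences was not tested.

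**Figure D4:**
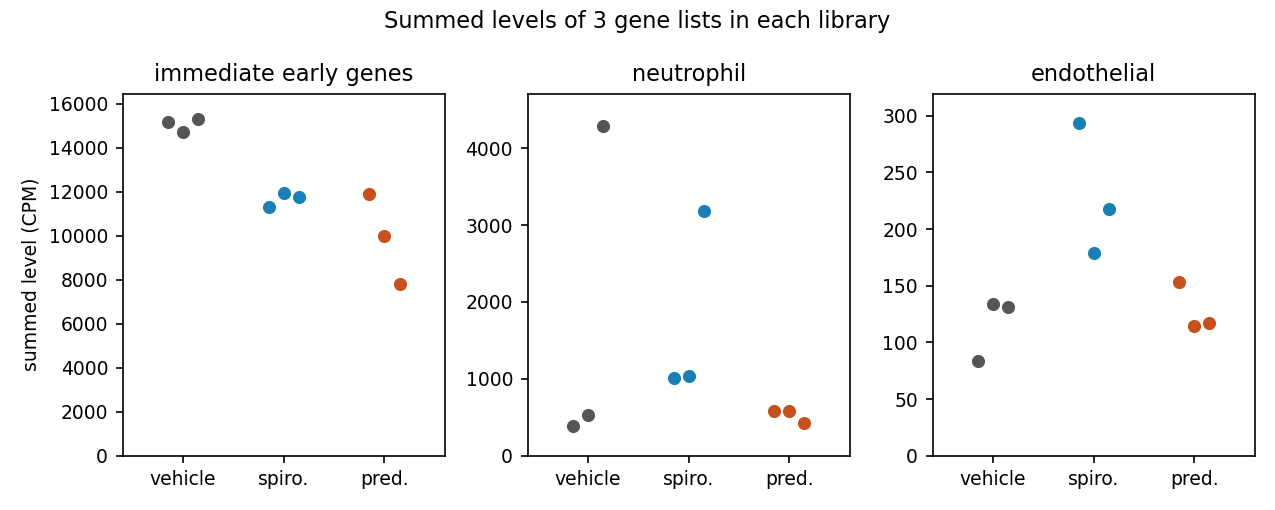
Summed level in CPM (vertical axes, from 0) of the 20 immediate early genes, the 10 neutrophil genes, and the 11 endothelial genes. Each point is 1 library, in replicate order from left to right within vehicle, spironolactone (spiro.), and prednisolone (pred.). The immediate early sums of both drugs lie below the vehicle range of 14713 to 15315 CPM, vehicle replicate 3 stands apart in the neutrophil genes at 4293 CPM, and the spironolactone libraries are highest in the endothelial genes.

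The genes whose levels over the 9 libraries were most like each of the 9 were found by the root mean square difference of centered log2 CPM among 8659 genes. *Cebpa* was closest to *Tfeb* (0.06), a lysosomal transcription factor gene, and *Ada* (0.06). *Cebpb* was closest to *Pmaip1* (0.0946) and to *Junb* (0.12), an AP-1 subunit gene. *Klf6* was closest to *Dnajb4* (0.08) and *Spty2d1* (0.0846), and *Klf4* to *Arl5b* (0.11) and *Azin1* (0.12). *Maf* was closest to *Bcl2l11* (0.05) and *Arhgef3* (0.08), *Klf2* to *Ptges3* (0.05) and *Cycs* (0.07), and *Runx1* to *Zfp142* (0.04) and *Stambpl1* (0.05). *Spi1* was closest to *Ostc* (0.03) and *Gnai2* (0.03), and *Cebpd* to *Smdt1* (0.04) and *Rpl17-ps10* (0.05). These likenesses are descriptions over 9 libraries that share normalization, and a gene with small differences between libraries has many close profiles.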

How the data were processed

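RNA of sorted myeloid cells was sequenced in 9 libraries, 3 per treatment, with 3 mice pooled in each. The deposited files hold raw counts per gene, which the authors made from aligned reads, and HISAT2 2.2.1, HTSeq 0.11.3, DESeq2 1.32.0, and the build mm39 are named in the submitters' processing notes. Deposited tables of the authors' own comparisons, with fold changes and test results, were not used here. The strand setting is not given in the sources used here. Lines naming no gene held 17.2% to 21.8% of a library and were left out. Counts of 16618 genes that passed filterByExpr (minimum count 10) were fitted over all 9 libraries with edgeR 4.0.16 (TMM factors, quasi-likelihood, robust, two-sided, Benjamini-Hochberg adjustment over all genes tested, threshold 0.05) in R 4.3.3. SE is the fold change divided by the root of the F statistic. DESeq2 1.42.0, limma 3.58.1 (voom), other scalings, other filters, and fits leaving out each library were alternatives. TPM used exon lengths of the GENCODE annotation of GRCm39, which covered 91.0% to 95.0% of counts. The fits were tested on simulated data. The 9 genes and all lists were chosen with earlier results of these data known. The genes named are the 9, at most 4 called per list and comparison, 5 relatives, and the 2 most like profiles of each gene (mean of at least 10 CPM). Spreads between replicates exceeded counting noise in every group. The main fit did not pair libraries by replicate number, and the labels do not say what the number marks. A gene planned as a further relative, and a ratio that used it, are not reported here.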

Additional observations from a re-analysis of the deposited data

How the results depend on the processing

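With 3 pools per group and 31469815 or more counts per library, the spread between pools rather than depth limits these comparisons, and P-values describe pools. The counts of genes called moved most. With DESeq2 they were 686 for prednisolone, 263 for spironolactone, and 1594 between the drugs, against 293, 3, and 859 in the main analysis, and with no low-count filter 1019, 528, and 1940. For spironolactone the count was 0 with limma-voom and 0 without the robust option. Between the drugs it was 1598 when only those groups were fitted, and 395 of 859 were higher in the main analysis against 327 of 917 with library totals and 454 of 852 with upper quartile scaling in place of TMM. Without vehicle replicate 3 and spironolactone replicate 3 together (added after seeing the data) the counts were 120, 0, and 285. Leaving out each library in turn gave 69 to 826 (lowest without prednisolone replicate 2, highest without vehicle replicate 1), 0 to 34, and 232 to 1898. Of the 9 transcription factor genes, DESeq2 called 1 with spironolactone and 2 between the drugs, no filter called 2 and 3, the fit of only the groups compared called 2 between the drugs, and the fit without both replicates 3 called 0 there. Leaving out 1 library gave 0 to 3 called with prednisolone and 0 to 2 between the drugs. The cause of these shifts was not tested.

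Several differences near 0 changed sign. *Cebpa* with spironolactone was 0.0245 with upper quartile scaling, 0.00146 with the stricter filter, -0.0731 without both replicates 3, and -0.0416 to 0.0282 when 1 library was left out. With 1 library left out, prednisolone values ran from -0.0961 to 0.0263 for *Spi1*, -0.207 to 0.0555 for *Klf2*, -0.288 to 0.0797 for *Klf4*, -0.0733 to 0.116 for *Runx3*, and -0.0523 to 0.0873 for *Csf1r*. Spironolactone values ran from -0.0950 to 0.201 for *Cebpd*, -0.525 to 0.614 for *Cebpe*, and -0.105 to 0.0641 for *Csf1r*. Between the drugs they ran from -0.143 to 0.0755 for *Klf6*, -0.0661 to 0.00872 for *Runx1*, -0.123 to 0.0220 for *Klf3*, and -0.137 to 0.0470 for *Csf1r*. The ratio of *Cebpb* to *Cebpa* ran from -0.0531 to 0.134 between the drugs. Without both replicates 3, *Klf2* was 0.0559, *Runx3* -0.0541, and *Csf1r* -0.0446 with prednisolone, and *Cebpe* 0.127 with spironolactone. *Cebpe* with spironolactone was 0.000863 with limma-voom, and *Csf1r* with spironolactone was 0.0209 with upper quartile scaling.

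The labels do not say whether a replicate number marks a shared sort or day, and the main fit did not pair the libraries. Correlations of the deviations of same-numbered libraries ran from -0.0502 to 0.169, and those of the others from -0.142 to 0.0444. These values cannot tell whether same-numbered libraries shared a batch. With the replicate block the counts of genes called were 336, 8, and 1082, the same 3, 0, and 1 of the 9 transcription factor genes were called, and *Cebpe* with spironolactone was 0.0218.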

Other observations

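Of 12 genes known to be induced by glucocorticoids, *Per1*, a clock gene, fell with prednisolone (log2 fold change -1.22 ± 0.17; edgeR adjusted *P* = 0.00436) and no other was called, beside 0.758% of all genes called lower. With prednisolone 6 of the 12 had an unadjusted *P* under 0.05 and 8 were below 0, beside 14.2% and 52.2% of all genes. The mean of *Per1* was 245 CPM in vehicle, 149 CPM with spironolactone, and 105 CPM with prednisolone. Spironolactone changed 0 of the 12 with edgeR, with 6 at an unadjusted *P* under 0.05, beside 9.29% of all genes. Between the drugs, *Zbtb16* was higher with spironolactone (0.73), whereas *Errfi1* (-0.59) and *Cd163* (-0.92), the hemoglobin scavenger receptor gene, were lower (edgeR adjusted *P* between 0.0179 and 0.0448), beside 2.38% of all genes called higher and 2.79% called lower. The call of *Per1* was kept whichever library was left out, and the other 3 ended without prednisolone replicate 1 or 2 or spironolactone replicate 3. Without vehicle and spironolactone replicates 3 the call of *Per1* was kept, the other 3 ended, and *Fkbp5* was called lower with spironolactone than with prednisolone (named after its value was seen).

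Of 7 vascular genes linked to KLF2 and KLF4, neither drug had a called gene against vehicle. Before adjustment, *P* was under 0.05 for 1 of them with prednisolone and for 5 with spironolactone, beside 14.2% and 9.29% of all genes. Between the drugs 3 were higher with spironolactone, where 2.38% of all genes were: *Nos3* (1.39), *Pecam1* (1.09), and *Cdh5* (1.13), with edgeR adjusted *P* between 0.00729 and 0.0256. The call of *Pecam1* was kept whichever library was left out, and those of *Nos3* and *Cdh5* ended without prednisolone replicate 2 or 3 or spironolactone replicate 3. Only *Pecam1* of the 3 was called without vehicle and spironolactone replicates 3. *Pecam1* and *Cdh5* are also among the 11 endothelial markers, all of which were higher with spironolactone than with prednisolone. *Klf2* and *Klf4*, in contrast, had differences of -0.13 and -0.35 between the drugs, neither of which was called. Of 15 partners and regulators of the 9 factors, *Trib2* was higher (1.63) and *Trib3* lower (-1.19) with spironolactone than with prednisolone (edgeR adjusted *P* of 0.0276 and 0.0499). Both were rare, with means of 0.606 to 2.12 CPM over the groups, and both calls ended without any 1 of the spironolactone libraries.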
